A study of Mus musculus with 5 samples.

Results

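The comparison set 2 subclones of the mouse plasma cell line AxJ that overexpress the RNA-binding protein hnRNP-F against 2 other transfected AxJ lines. These are 4 of the 5 arrays of the study. All 12422 probe sets that are not array controls, of 12488 on the array, were compared. A probe set was counted only where the deposited intensity differed in the same direction in all 4 clone-control pairs and was at least 100 in both arrays of the brighter group.

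The study measured poly(A)-selected RNA on Affymetrix mouse expression arrays, with 1 array for each line. The hnRNP-F group held subclones B5 and D6. The control group held an AxJ line transfected with the empty vector and an AxJ line that overexpresses the related protein hnRNP-H, so 1 of the 2 controls is itself an overexpression line. All 4 lines were stably transfected and grown in log phase in medium with G418, the drug that selects for the transfected resistance gene. The hnRNP-F and hnRNP-H lines were selected by western blot for high levels of the protein, and the submitters describe the hnRNP-F clones as having a lower ratio of secretory to membrane heavy-chain mRNA. The fifth array, of the A20 B cell line, entered no fit and is used only as an outside level. Each line is a selected clone or transfectant measured once. A difference that belongs to a clone, to its culture or to its array therefore cannot be told apart from one that belongs to hnRNP-F.

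hnRNP-F and hnRNP-H are closely related proteins that bind runs of G in RNA and influence splice-site and poly(A)-site choice. In B cells the immunoglobulin heavy-chain transcript can end at a promoter-proximal secretory poly(A) site or be spliced to the membrane exons, and plasma cells favour the secretory form. Binding of hnRNP-F downstream of a poly(A) site can hinder the cleavage factor CstF-64, which is encoded by Cstf2, and the elongation factor ELL2 promotes use of the secretory site in plasma cells.

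Median intensities of the 4 AxJ arrays, over the probe sets that are not controls, were 37.7 to 41.7, so the submitters' scaling was kept. The ratio of 5' to 3' signal of the Gapdh control, a measure of how intact the RNA and how complete its copying was, was 0.212 in the empty vector line and 0.181 in B5, but 0.866 in the hnRNP-H line and 0.683 in D6. Each group thus held 1 array with a low and 1 with a high ratio. No probe set carried Hnrnpf as its single symbol, so the overexpressed transcript could not be checked. Of 7 plasma cell markers measured, Igha, Jchain, Irf4 and Xbp1 were above 500 in all 4 lines, while Sdc1 and Tnfrsf17 were below 100 in all 4. The summed plasma cell markers were 16122 to 17380 in the controls and 15450 to 16949 in the clones. Of 11 B cell markers, 3 and 2 reached 100 in the control lines against 4 and 2 in the clones, with sums of 2019 to 3731 and 3311 to 3871. Sums of 11 myeloid markers were 314 to 364 in the controls and 408 to 514 in the clones, where Cd14 was 241 in B5 and 132 in D6 against 109 and 104. Csf1r was 26.8 and 39.8 in the controls against 68.0 and 55.4 in the clones, and S100a8 was 7.13 and 7.91 against 19.6 and 16.1. Lyz2 was 47.5 in B5 and at most 5.16 in the other 3 lines. Other myeloid markers went the other way: Fcgr3 was 30.0 and 21.3 in the controls against 12.3 and 12.9 in the clones, and Mpo was 21.1 and 24.1 against 2.97 and 13.8. The groups overlapped for S100a9, Adgre1 and Cd68. They also overlapped for Itgam and C1qa, which were below 30 in all 4. Sums of 7 T cell markers were 55.7 to 97.0 in the controls and 76.5 to 138 in the clones. Sums of 10 stromal markers were 491 to 641 and 520 to 720, and of 5 erythroid markers 189 to 222 and 142 to 159. There were 9 probe sets at 1000 or more in A20 and at 50 or less in the 3 AxJ lines other than B5, whatever their level in B5. In B5 they stood at a median 4.42% of their A20 level, and 5 of these reached 100. The same criterion gave 1 probe set for each other AxJ line, which was dim there too. It stood at 16.6 in the empty vector line, 13.6 in the hnRNP-H line and 11.7 in D6. Among the 9 found for B5 was lymphotoxin beta, Ltb, at 133 in B5 and 33.7 to 43.7 in the other AxJ lines. The part of these signals in the results below was not tested, and results that lead are given without B5.

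The differences counted in every pair were mostly small. Of 12422 probe sets, 830 (6.68%) were counted higher in the hnRNP-F clones and 882 (7.1%) were counted lower. In the smallest of the 4 pair comparisons the median counted probe set differed by 1.13-fold when higher and by 1.15-fold when lower. The median ratio of group means was 1.38 and 1.40. At least 1.5-fold in every pair was reached by 34 higher and 56 lower probe sets. At least 2-fold was reached by 6 higher (0.0483%) and 4 lower (0.0322%). With 1 array left out only 2 pairs have to hold, and the counts were 1337 to 1694 higher and 1284 to 1835 lower. At 2-fold they were then 16 to 180 higher and 16 to 167 lower, the most without the hnRNP-H line. Both groups have 2 arrays, so an exact two-sided permutation test of a single probe set cannot go below p = 0.333. A probe set whose 4 values fell in random order would separate the groups, in either direction, with a frequency of 0.333. The requirement of 100 set the edge of the count. The dimmer clone array of Mvp stood at 100.2, just inside, and that of Snx12 at 99.9, just outside. On the lower side the dimmer control array of Larp7 stood at 100.6 and that of Pkn2 at 99.96. Without that requirement, 2159 of the 12422 probe sets had the same sign upwards and 2117 downwards, which by itself does not show more than random order. Of 4044 probe sets with 100 or more in both arrays of a group, 42.3% were counted in either direction. The requirement itself favours separated probe sets, so the frequency for random order does not apply directly to that share.

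**Figure D1:**
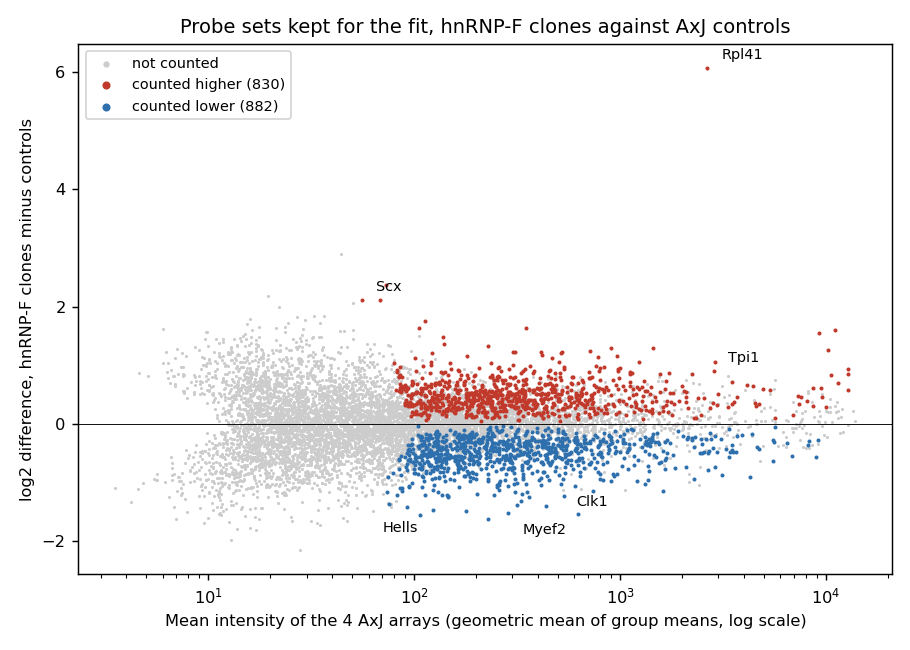
Each point is 1 of the 8915 probe sets kept for the fit. The x axis gives the mean intensity of the 4 AxJ arrays on a log scale and the y axis the log2 difference of hnRNP-F clones minus controls. Counted probe sets are red (830 higher) and blue (882 lower), and Rpl41 stands alone at 6.06.

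The single probe set past the test was that of Rpl41, a small protein of the large ribosomal subunit. Its intensity was 518 in the empty vector line, 164 in the hnRNP-H line, 24275 in B5 and 16541 in D6. Both clones lay far above both controls, and A20, at 14165, lay near the clones. The suffix of its probe set marks a sequence family, so near-identical copies of the gene may be read with it. Rpl41 rose by 6.06 ± 0.45 (SE, n = 2 against 2) on the scale of log2(intensity + 7.02), with an adjusted p of 3.8e-05 by limma with Benjamini-Hochberg adjustment over 8915 probe sets. This was 1 of 8915 (0.0112%), against 519 with an unadjusted p under 0.05, of which 229 were higher and 290 lower. The limma call was lost when the spread was not fitted as a trend on intensity (adjusted p = 0.424), a setting under which 0 probe sets passed and 419 had an unadjusted p under 0.05. Over the fits that left out 1 array, the Rpl41 difference was 5.25 to 6.88 with adjusted p of 0.000383 to 0.0154. Without D6 a second, unnamed probe set passed as well, which was at 789 in B5 and below 6 in the other 3 AxJ lines.

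Control probe sets for interspersed repeats, which are not among the 12422, were high in the same arrays as Rpl41. The control for the murine B2 repeat, a short transposable element present in many transcripts, was 1491 and 1180 in the controls against 22650 and 14385 in the clones. The control for the B1 repeat was 9423 and 6712 in the controls against 21419 and 13047 in the clones. In both, B5 was highest, D6 next and the hnRNP-H line lowest of the AxJ lines, the same order as for Rpl41. Other bright probe sets had this order too, so it is not particular to Rpl41 and the repeat controls. From empty vector through hnRNP-H and B5 to D6, Rps3 was 7841, 7216, 14307 and 9234. The translation factor gene Eef1a1 was 10359, 3641, 16709 and 13081. A20 stood at 11779 for B2, between the groups, and at 5680 for B1, below all 4 AxJ lines. The third such control, named mur_b2, was 2477 and 1337 in the controls against 2125 and 1239 in the clones, so the groups overlapped. Of the counted probe sets annotated to several genes, one (8550, 4442, 22048 and 15703, from empty vector through hnRNP-H and B5 to D6) and another (7259, 3704, 18483 and 12415) were higher in the same order. Whether these probe sets share sequence with the Rpl41 probe set was not tested.

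**Figure D2:**
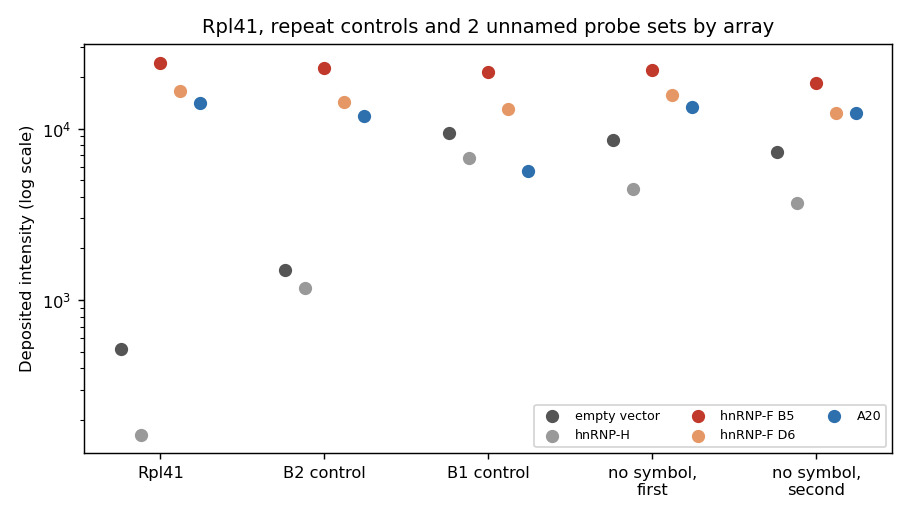
Deposited intensity (log scale) of Rpl41, the B2 and B1 repeat controls and 2 probe sets annotated to several genes, 1 point per array. These 2 are marked as no symbol because they have no single symbol. In all 5 probe sets both clones lie above both controls, and the gap is widest for Rpl41.

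No other gene passed the limma threshold: adjusted p-values of the other named genes ran from 0.411 to 0.994 (limma, Benjamini-Hochberg). The genes named next were those with the largest difference in their closest clone-control pair. Their values describe these 4 arrays. In bulk RNA, fewer cells that express a gene and less RNA per cell cannot be told apart.

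In the higher group of 15, Scx, a basic helix-loop-helix factor known from tendon, was 19.7 in the empty vector line, 28.9 in the hnRNP-H line, 135 in B5 and 119 in D6, a difference of 2.11 ± 0.38 (SE). Both controls lay near background and A20 was at 11.4. Bcl7c, a subunit of SWI/SNF chromatin remodelling complexes, was 8.63, 61.2, 136 and 131 in the same order, and here the controls themselves differed widely. Urm1, a ubiquitin-like protein that carries sulphur for tRNA modification, was 5.20, 66.3, 122.5 and 177. Chmp6, a component of the ESCRT-III membrane-scission machinery, was 34.1, 85.7, 180 and 188. In Bcl7c, Urm1 and Chmp6 the clones were closer to the hnRNP-H line than to the empty vector line. Med28, a Mediator subunit, was 310, 390, 786 and 671, and the histone deacetylase Hdac5 was 172, 179, 327 and 295. In both, the controls lay close together.

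Catalase, Cat, which breaks down hydrogen peroxide, was 74.7 and 95.5 in the controls against 252 and 206 in the clones on 1 probe set. On its other probe set the Cat difference was -0.05, and the groups overlapped. Napsa, an aspartic protease, was 116 and 122 in the controls against 305 and 244 in the clones, far under its A20 level of 3568. Psme3, the nuclear proteasome activator PA28 gamma, was 304 and 369 against 716 and 850. Etfdh, which passes electrons from fatty acid oxidation to ubiquinone, was 107 and 96.5 against 238 and 198, and Msrb1, a methionine sulfoxide reductase, was 140 and 187 against 363 and 319. Tpi1, the glycolytic triosephosphate isomerase, was 1868 and 2316 in the controls against 3823 and 3959 in the clones, with A20 at 2252. Tmem109, a membrane protein, was 251 and 382 against 678 and 691. Its other probe set was dim, at 4.60 to 17.2, and had a difference of -0.47. Rasa4, a GTPase-activating protein for Ras, was 186 and 195 against 324 and 346.

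A further 4 genes were named for their high intensity among those at least 1.5-fold higher in all pairs. Bcl2l1, which encodes the survival protein BCL-xL, was 454 and 863 in the controls against 1443 and 1368 in the clones. Its other probe set was dim, at 4.37 to 8.34, and had a difference of -0.02. Rhob, a small GTPase of endosomes, was 418 and 629 against 946 and 1376. Lman2, a lectin that carries glycoproteins through the secretory pathway, was 666 and 838 against 1281 and 1293. Abcf1, an ATP-binding protein involved in translation initiation, was 433 and 614 against 976 and 932. That the lowest clone stood at least 1.5-fold above the highest control in each follows from this choice.

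In the lower group of 15, Hells, a SNF2-family helicase needed for DNA methylation, was 210 in the empty vector line, 208 in the hnRNP-H line, 55.8 in B5 and 89.5 in D6, a difference of -1.47 ± 0.33 (SE). The controls and A20 (216) lay together and both clones lay well below. Dna2, a nuclease and helicase of DNA replication, was 127 and 103 in the controls against 47.4 and 46.9 in the clones. Srsf10, an SR-like splicing regulator, was 367 and 247 against 89.7 and 119. Its other probe set was dim, at 9.47 to 61.7, and had a difference of 0.47. Clk1, a kinase that phosphorylates SR proteins, was 795 and 695 against 364 and 356, a difference of -1.03 ± 0.28. Kin, a DNA- and RNA-binding protein, was 172 and 149 against 81.7 and 73.4, and Myef2, an RNA-binding repressor, was 609 and 377 against 134 and 199. Ddx3x, an RNA helicase, was 126 and 188 against 42.5 and 65.9. On another Ddx3x probe set the values were 660 and 704 against 597 and 529, a smaller difference of the same sign, and on the other, dim one it was 0.73.

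Ddx21, a nucleolar helicase of ribosomal RNA processing, was 1281 and 942 in the controls against 483 and 501 in the clones, a difference of -1.15 ± 0.29 (SE). Gnl3, the nucleolar GTPase nucleostemin, was 1350 and 1132 against 681 and 681. Mdn1, an ATPase that matures the large ribosomal subunit, was 201 and 217 against 105 and 107. Nup54, a pore-channel nucleoporin, was 489 and 436 against 174 and 234. That both clones lay below both controls in these 4 genes follows from the rule by which they were named.

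Atp6ap2, an accessory protein of the proton pump V-ATPase, was 149 and 133 against 61.6 and 63.8. The zinc-finger factor Klf10 was 125 and 133 against 41.3 and 64.2, but 165 and 231 against 175 and 165 on a second probe set, where the groups overlapped. Dr1, a repressor of the TATA-binding protein, was 266 and 255 against 143 and 143. The genes Dcaf8l (249 and 198 against 82.2 and 103) and Tyms-ps, a pseudogene of thymidylate synthase (182 and 215 against 74.6 and 96.5), completed the 15. Tyms-ps may share probes with its parent gene, and its other probe set was dim, at 4.39 to 35.6. Idi1, an isomerase of sterol synthesis, was 1971 and 1451 against 847 and 870. Mtdh, a membrane protein that also binds RNA, was 4987 and 3566 against 2369 and 2234. Its second probe set, at 541 and 443 against 431 and 383, had a difference of -0.27. The milk protein gene Csn3 was 3243 and 3831 against 2029 and 2036, with A20 at 44.4.

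**Figure D3:**
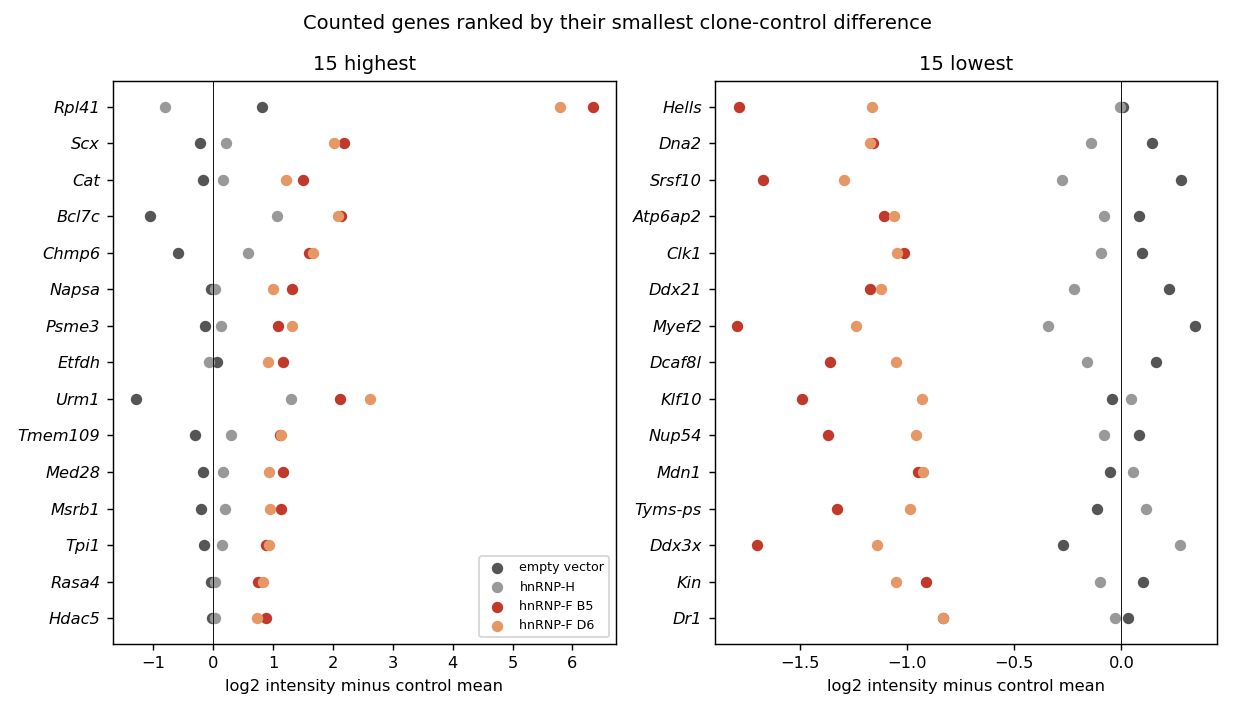
The 15 highest and 15 lowest genes by their closest clone-control pair. The x axis gives log2(intensity + 7.02) of each array minus the mean of the controls, with 1 point per array. By the rule of choice no clone point overlaps a control point. Bcl7c and Urm1 show the widest gaps between the controls.

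The mRNAs of splicing regulators were mostly lower in the clones. Of 22 SR proteins and SR kinases measured, 3 lay above 0 and 19 below, with a median log2 difference of -0.55, and 1 was counted higher and 10 lower. Over all 6506 genes measured the median was 0.00, with 3264 above 0, and 691 genes (10.6%) were counted higher and 730 (11.2%) lower. These shares include genes too dim to be counted, so they are too low a base for the counts of this list and the lists below. Of 3305 genes with 100 or more in both arrays of a group, 729 were counted higher on some probe set and 774 lower. Against the empty vector line the median of the SR list was -0.69 in B5 and -0.67 in D6. Against the hnRNP-H line it was -0.38 in B5 and -0.33 in D6. The hnRNP-H line itself stood at -0.29 against the empty vector line for these genes, and without B5 the median was -0.49. Beside Srsf10 and Clk1, the founding SR protein gene Srsf1 was 238 and 141 in the controls against 42.1 and 79.0 in the clones, on 1 of its 4 probe sets. The other 3 were dim, none over 52.2 in the 4 lines, and had differences below 0 too. The SR kinase gene Clk4 was 259 and 182 against 121 and 133. None of these genes passed limma.

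Of 24 measured hnRNP and related RNA-binding protein genes, 4 lay above 0 and 20 below, with a median of -0.29, and 1 was counted higher and 10 lower. Against the empty vector line the median was -0.52 in B5 and -0.47 in D6, and against the hnRNP-H line it was -0.31 in B5 and -0.06 in D6. The hnRNP-H line stood at -0.32 against the empty vector line, and without B5 the median was -0.26. Hnrnpk, whose protein binds runs of C, was 531 and 412 in the controls against 229 and 254 in the clones. Hnrnpr was 460 and 410 against 162 and 268. Hnrnpm was 1237 and 932 against 532 and 652. These were named because they were counted lower, as was the splicing repressor gene Hnrnpa1, at 353 and 340 against 247 and 274. Of the hnRNP-F and hnRNP-H family, 4 members were measured, 0 lay above 0 and the median was -0.36. Without B5 the median was -0.19, and for D6 against the hnRNP-H line it was -0.11. The hnRNP-H line stood at -0.20 against the empty vector line for these members. Hnrnph1 was 1487 in the empty vector line, 1056 in the hnRNP-H line, 725 in B5 and 970 in D6, a difference of -0.58 ± 0.31 (SE). Its level was not higher in the line labelled as overexpressing hnRNP-H, and whether the probes cover the transfected sequence was not tested. Hnrnph3 was 149, 134, 93.4 and 134, where D6 and the hnRNP-H line were nearly equal.

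The machinery on which these proteins act was less one-sided. Of 42 core spliceosome genes, 23 lay above 0, the median was 0.07, and 7 were counted higher and 5 lower. Lsm2, of the ring that binds U6 RNA, was 575 and 828 in the controls against 1641 and 1081 in the clones. The helicase gene Dhx16 was 191 and 180 against 247 and 231. In the other direction, the helicase gene Ddx5 was 297 and 302 against 212 and 278, and Crnkl1, a splicing scaffold protein, was 306 and 242 against 206 and 189. Of 20 cleavage and polyadenylation genes, 8 lay above 0, the median was -0.20, and 4 were counted higher and 5 lower. Cstf2 was 757 and 628 in the controls against 390 and 510 in the clones, a difference of -0.62 ± 0.29 (SE). Pabpc1, the cytoplasmic poly(A)-binding protein, was 6143 and 6344 against 4799 and 5242. Cpsf7, of cleavage factor I, was 315 and 368 against 284 and 238. Cpsf4, a zinc-finger subunit of the cleavage factor CPSF, differed the other way, at 124 and 235 against 379 and 252. Of 27 mRNA surveillance and decay genes the median was 0.05, and 2 were counted higher and 2 lower. Parn, a nuclease that removes poly(A) tails, was 111 and 117 against 159 and 131. Zfp36l2, which binds AU-rich elements, was 278 and 209 against 155 and 169, but 136 and 159 against 85.0 and 172 on a second probe set, where the groups overlapped.

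Ell2 was read by 3 probe sets that did not give the same value. On the first it was 3865 in the empty vector line, 2096 in the hnRNP-H line, 1942 in B5 and 2068 in D6. The difference was -0.50 ± 0.35 (SE), and the high array was that of the empty vector, since D6 and the hnRNP-H line were nearly equal. On the second it was 774, 297, 138 and 232, a difference of -1.39 ± 0.41. The third was below 80 in all 4 lines. Transcription elongation genes as a list had a median of 0.08, with 14 of 23 above 0, 5 counted higher and 4 lower. Nelfe, of the pausing factor NELF, was 534 and 561 in the controls against 736 and 836 in the clones. Gtf2f1, of TFIIF, was 333 and 374 against 449 and 422. The elongation factor gene Supt6 was 217 and 386 against 469 and 404, and Tcea2, a TFIIS gene, was 113 and 82.2 against 121 and 129. The other Tcea2 probe set was dim, at 8.56 to 23.4, and had a difference of -0.21. Of 11 RNA polymerase II subunit genes, 10 lay above 0 with a median of 0.15, and 2 were counted higher and 0 lower. These were Polr2m, at 493 and 749 against 830 and 785, and Polr2j, at 942 and 1092 against 1096 and 1161. Both differed little between the hnRNP-H line and the clones.

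Immunoglobulin and plasma cell genes showed small differences. Igha, the alpha heavy chain gene, was 8345 in the empty vector line, 9534 in the hnRNP-H line, 10655 in B5 and 8922 in D6. The groups overlapped, and the difference of 0.13 ± 0.35 (SE) became -0.14 after quantile normalisation. Ighm on its brightest probe set was 756, 2769, 1062 and 2711, low in the empty vector line and B5, which are also the arrays with the low Gapdh ratio, and high in the other 2. Its 8 other probe sets in the fit were dim, none over 121 in the 4 lines. Their differences ran from -1.41 to 0.65, with 5 below 0. The probe sets are not assigned here to the secretory or membrane form, so the ratio of these forms was not analysed here. Of 27 immunoglobulin and J chain genes, 15 lay above 0 with a median of 0.11, and 0 were counted higher and 2 lower. These were Jchain, which joins IgA and IgM polymers, at 6085 and 4830 against 4193 and 3901, and the variable segment Ighv5-12, at 170 and 145 against 111 and 126. Of 26 plasma cell genes, 11 lay above 0 with a median of -0.09, and 0 were counted higher and 4 lower. Beside Jchain and Ell2 these were Sec11c, of the signal peptidase, at 335 and 374 against 228 and 238, and Pou2af1, a coactivator of octamer-binding factors, at 602 and 445 against 421 and 362. The other Pou2af1 probe set was dim, at 6.59 to 9.72, and had a difference of 0.13. Of 27 B cell identity genes, 18 lay above 0 with a median of 0.26, which was 0.12 without B5, and 4 were counted higher and 1 lower. Plcg2, a phospholipase of receptor signalling, was 434 and 395 against 475 and 597, and the surface protein gene Cd37 was 239 and 312 against 333 and 371. The adaptor gene Blnk differed the other way, at 1194 and 1176 against 954 and 938.

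In the 3 lists of ribosomal and mitochondrial protein genes more members lay above 0 than below, but D6 was not clearly above the empty vector line in any of them. Of 30 cytosolic ribosomal protein genes, 24 lay above 0 with a median of 0.31, and 7 were counted higher and 2 lower. The median was 0.21 after quantile normalisation and 0.15 without B5, and that of D6 minus the empty vector line was -0.03. Beside Rpl41, Rps3 of the small subunit was 7841 and 7216 in the controls against 14307 and 9234 in the clones. Rplp0, of the ribosomal stalk, was 11553 and 9305 against 18124 and 13349.9. Rpl7a was 4125 and 3882 against 5312 and 4885. B5 was the highest array in all 3. Of 68 respiratory chain and ATP synthase genes, 45 lay above 0 with a median of 0.13. Counted higher were 16 (23.5%) and lower 3 (4.41%), against 10.6% and 11.2% of all genes, dim ones included. The median was 0.07 without B5, and D6 minus the empty vector line had a median of 0.00. Sdhc, of succinate dehydrogenase, was 721 and 933 against 1719 and 1288. Uqcrc1, of complex III, was 697 and 1052 against 1427 and 1403. Ndufs3, of complex I, was 668 and 629 against 880 and 809. The electron carrier cytochrome c, Cycs, differed the other way, at 162 and 146 against 106 and 120. Of 59 mitochondrial ribosomal protein genes, a list chosen after values were seen, 38 lay above 0 with a median of 0.10, and 11 were counted higher and 2 lower. Their median was 0.01 without B5 and -0.05 for D6 minus the empty vector line. Mrpl12 was 777 and 1004 against 3179 and 1484, and Mrps11 was 104 and 146 against 272 and 187. In both, B5 was the highest array.

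Translation factors and ribosome assembly genes did not follow the ribosomal proteins. Of 43 translation factor genes, 20 lay above 0 with a median of -0.15, and 11 were counted higher and 10 lower. Eif3k, of the initiation factor eIF3, was 1295 and 1404 in the controls against 1862 and 2215 in the clones. Abce1, which recycles ribosomes, was 957 and 539 against 380 and 365. The initiation factor gene Eif1a was 506 and 389 against 286 and 271, and 311 and 301 against 180 and 207 on a second probe set. Eif4g2 was 201 and 197 against 116 and 137. Of 68 ribosome biogenesis genes, a list also chosen after values were seen, 30 lay above 0 with a median of -0.05. Counted higher were 5 (7.35%) and lower 21 (30.9%), against 10.6% and 11.2% of all genes, dim ones included. Mak16, of large-subunit assembly, was 162 and 169 against 81.5 and 104, on the same side as Ddx21, Gnl3 and Mdn1. Of 41 nuclear pore and transport genes, again chosen after values were seen, 14 lay above 0 with a median of -0.24, and 5 were counted higher and 13 lower. The median was -0.12 without B5. The import adaptor gene Kpna1 was 166 and 104 against 59.0 and 53.2. The export helicase gene Ddx19b was 181 and 161 against 131 and 106. Tnpo3, the import receptor of SR proteins, differed the other way, at 349 and 421 against 520 and 608.

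Metabolic lists differed in direction. Of 27 glycolysis and glucose uptake genes, 15 lay above 0 with a median of 0.19, and 8 were counted higher and 2 lower. Tkt, the transketolase of the pentose phosphate pathway, was 231 and 469 in the controls against 749 and 820 in the clones. Pfkl, a phosphofructokinase, was 441 and 765 against 1051 and 1245. Ldha, lactate dehydrogenase, was 3894 and 4828 against 6643 and 6299. The median of the list in the pair of B5 and the hnRNP-H line was -0.08. Of 24 sterol and fatty acid synthesis genes, 9 lay above 0 with a median of -0.18, which was -0.03 without B5, and 2 were counted higher and 5 lower. With Idi1, the lower ones included the fatty acid elongase gene Elovl6, at 168 and 120 against 67.3 and 83.2. The elongase gene Elovl5 was 898 and 880 against 442 and 722, and the sterol oxidase gene Msmo1 was 149 and 186 against 112 and 87.7. Of 46 proteasome genes, 28 lay above 0 with a median of 0.07. Counted higher were 13 (28.3%) and lower 7 (15.2%), against 10.6% and 11.2% of all genes. Those shares of all genes include genes too dim to be counted, so an excess is not shown here or in the other metabolic lists. Psmd8, of the regulatory particle, was 203 and 287 against 465 and 427. Psmb10, a catalytic subunit of the immunoproteasome, was 239 and 302 against 447 and 376. Psmd6, also of the regulatory particle, differed the other way, at 997 and 867 against 605 and 703. Of 39 metallothionein and oxidative stress genes the median was 0.03, and 7 were counted higher and 3 lower. Gpx4, which reduces lipid peroxides, was 192 and 378 against 551 and 455. The glutathione transferase gene Gstm1 was 357 and 499.5 against 662 and 599. Nfe2l2, the regulator of antioxidant genes, was 230 and 181 against 142 and 149.

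Cell cycle and DNA replication genes were counted in both directions. Of 63 measured, 25 lay above 0 with a median of -0.03, and 9 (14.3%) were counted higher and 14 (22.2%) lower, against 10.6% and 11.2% of all genes. The shares of all genes include genes too dim to be counted, so an excess in this list is not shown. Both primase subunits were lower, Prim1 at 192 and 191 in the controls against 91.6 and 133 in the clones and Prim2 at 149 and 137 against 71.4 and 90.9. Pola1, the catalytic subunit of polymerase alpha with which they act, was 107 and 105 against 58.5 and 76.9. Cyclin D3, Ccnd3, differed the other way, at 136 and 229 against 312 and 311. Of 14 histone genes the median was 0.06, and 2 were counted higher and 1 lower. H2ax, the histone variant marked at DNA breaks, was 1323 and 1879 against 2469 and 2474. Of 46 actin cytoskeleton and S100 genes, 27 lay above 0 with a median of 0.13, and 10 were counted higher and 4 lower. Gamma actin, Actg1, was 2817 and 2663 against 4222 and 4768. Cofilin, Cfl1, which severs actin filaments, was 1291 and 2885 against 4133 and 3864. Ezrin, Ezr, which ties actin to the membrane, was 744 and 661 against 507 and 548.

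Stress and secretory lists had members on both sides. Beside their counts stand the 10.6% counted higher and 11.2% counted lower of all genes, which include genes too dim to be counted. Of 29 heat shock and chaperonin genes the median was -0.08, and 6 were counted higher and 7 lower. Dnaja3, a mitochondrial co-chaperone, was 262 and 225 in the controls against 353 and 431 in the clones. Cct7, of the chaperonin ring that folds actin and tubulin, was 795 and 1274 against 1593 and 1535. Hspa4 was 583 and 542 against 283 and 350, but the groups overlapped on its other 4 probe sets. Of 40 ER folding genes the median was 0.02, and 4 were counted higher and 5 lower. The ER protein genes Erp29 (1535 and 1802 against 2546 and 2394) and Txndc5 (748 and 1320 against 1704 and 1605) were among the higher. Ero1b, an oxidase of disulphide formation, was 411 and 322 against 269 and 270. Of 55 ER translocation and vesicle transport genes the median was -0.01, and 9 were counted higher and 9 lower. The coat protein gene Copg1 was 394 and 411 against 293 and 270, the other way from Lman2. Its second probe set was dim, at 11.1 to 63.0, with a difference of 0.34. Of 32 integrated stress response genes the median was 0.05, and 4 were counted higher and 2 lower. Sars, a tRNA synthetase, was 199 and 308 against 384 and 382, whereas Mthfd2, of mitochondrial folate metabolism, was 685 and 570 against 462 and 513.

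Of 43 NF-kB and apoptosis genes the median was 0.11, and 4 were counted higher and 5 lower. Birc3, an inhibitor of apoptosis, was 346 and 273 in the controls against 107 and 157 in the clones, opposite in direction to Bcl2l1. Casp9, an initiator caspase, was 58.9 and 73.2 against 113 and 106 on 1 probe set. Its other probe sets were below 80 in all 4 lines, and the groups overlapped on some of them. Of 30 interferon response genes the median was -0.01, with 3 counted higher and 1 lower. Of 30 MHC genes it was 0.06, with 2 and 2, and B2m, the light chain of MHC class I, was 4477 and 3672 against 3310 and 2695. Of 22 immediate early genes the median was -0.10, with 1 counted higher and 1 lower. These were Btg2, an antiproliferative gene, at 814 and 1370 against 1740 and 1417, and Myc, at 1499 and 1588 against 1179 and 1054. Of 26 genes for ID proteins and their partners the median was -0.05, with 1 and 1. Of 58 chemokine, interleukin and receptor genes it was 0.22, with 0 counted higher and 1 lower, and it was 0.01 without B5.

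**Figure D4:**
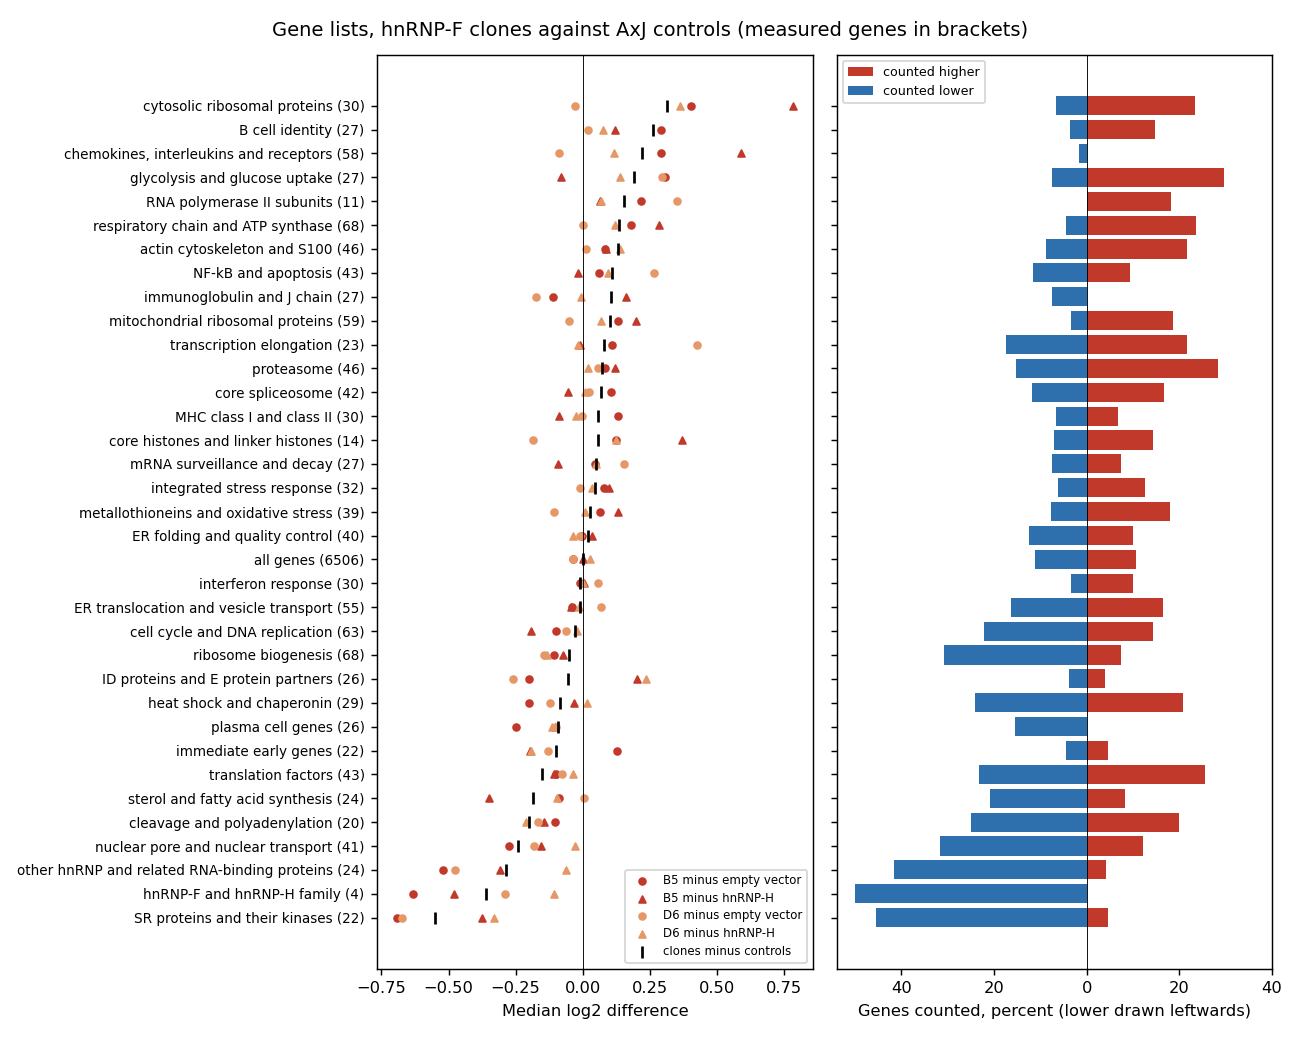
Left, the median log2 difference of each gene list (black bar) and of each clone-control pair (points). Right, the percent of its measured genes counted higher (red) and lower (blue). SR proteins lie lowest, at -0.55, and cytosolic ribosomal proteins highest, at 0.31, while all 6506 genes lie at 0.00.

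The direction of the difference went with the genomic span of the gene, the distance from its first to its last base with introns, taken from the RefSeq annotation of GRCm38.p6. The median span was 12.1 kb for 729 genes counted higher, 26.5 kb for 772 genes counted lower, and 17.6 kb for the 3301 genes with a span and with 100 or more in both arrays of a group. With these genes cut into 4 groups of equal size by span and read by 1 probe set each, 29.5% of the shortest group (median 4.48 kb) were counted higher and 10.4% lower. In the second group these shares were 24.2% and 19.5%, in the third 16.1% and 25.5%, and in the longest (median 64.6 kb) 13.9% and 32.9%. The median log2 differences of the 4 groups were 0.18, 0.07, -0.04 and -0.11. The order was the same after quantile normalisation (0.18 to -0.11) and in probe sets of low (0.16 to -0.11), middle (0.20 to -0.07) and high (0.18 to -0.18) intensity. It was also the same with every member of the gene lists left out (0.20 to -0.10) and without B5 (0.17 to -0.06). This is a description across genes, which are not independent replicates.

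The same order of the span groups was found in all 4 clone-control pairs, with different steepness. From the shortest to the longest genes the medians ran from 0.27 to -0.26 for B5 against the empty vector line and from 0.15 to -0.17 for B5 against the hnRNP-H line. They ran from 0.23 to -0.09 for D6 against the empty vector line and from 0.07 to -0.04 for D6 against the hnRNP-H line. Lines within a group differed along the same axis: the hnRNP-H line minus the empty vector line ran from 0.14 to -0.08, and D6 minus B5 from -0.09 to 0.13. The gradient between D6 and the hnRNP-H line was thus smaller than the gradient within either group. SR protein and kinase genes, with a median span of 20.1 kb, were close to all genes in span (19.0 kb), whereas hnRNP genes were longer (27.9 kb) and cytosolic ribosomal protein (3.70 kb), mitochondrial ribosomal protein (7.31 kb) and respiratory chain genes (7.23 kb) were shorter. The GC content of the promoter, from 250 bases before to 50 after the start site and known for 82% to 83% of these genes, had medians of 60.7% for genes counted higher, 62.3% for genes counted lower and 61.3% for all.

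**Figure D5:**
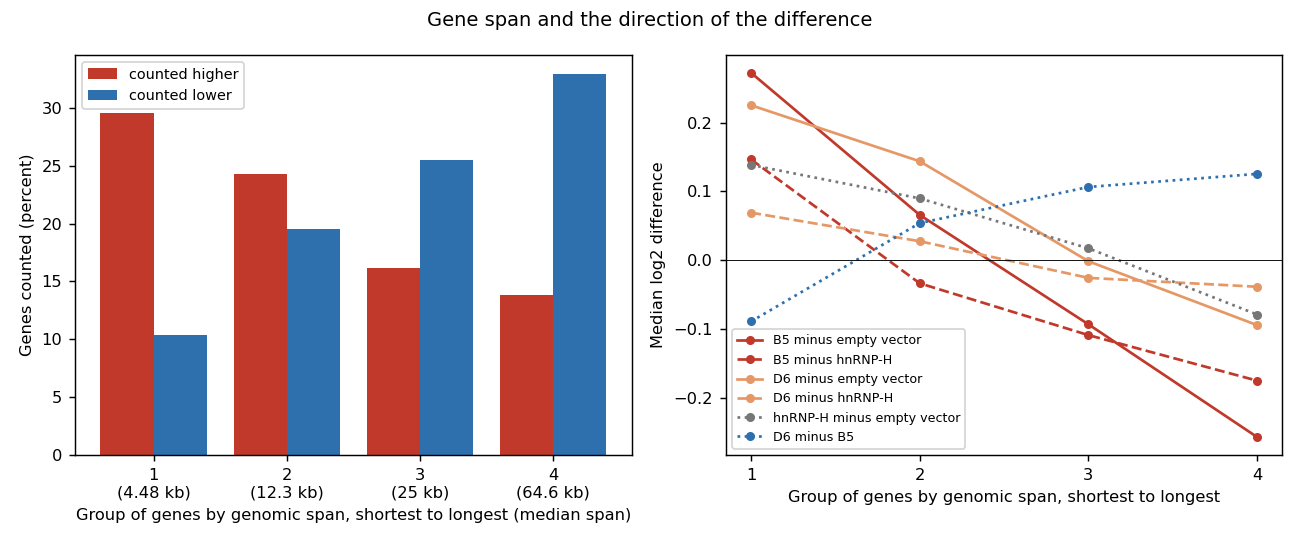
Left, the percent of genes counted higher (red) and lower (blue) in each of 4 groups of genes by genomic span. Right, the median log2 difference by span group for each clone-control pair and, dotted, for the pairs within a group. All 4 clone-control lines fall from the shortest to the longest genes, as does the dotted line of hnRNP-H minus empty vector.

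Genes read by more than 1 probe set showed how far probe sets of the same gene differed alike. All were read on the same arrays, so agreement between them does not show that a difference holds beyond these arrays. For genes counted higher, 105 of 148 other probe sets at 100 or more had the same sign (70.9%), 50 were counted higher and 14 were counted lower. For genes counted lower, 125 of 168 had the same sign (74.4%), 70 were counted lower and 14 higher. Of all probe sets bright enough to be counted, 42.3% were counted in either direction, so being counted in some direction was common. 

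A fit with the Gapdh ratio as a block, which compares B5 with the empty vector line and D6 with the hnRNP-H line, called 80 of 8915 probe sets (0.897%), 38 higher and 42 lower (limma, Benjamini-Hochberg). It has 1 residual degree of freedom, and limma set every probe set's spread to the intensity trend, so a probe set's own scatter hardly enters: the unnamed probe set that was bright in B5 alone was among the 80. Of these, 76 had the same sign in both matched pairs, and 62 of them also had at least 100 on the brighter side. In all 4 pairs 59 were counted, 30 higher and 29 lower. Among the 15 highest genes 10 were called in this fit and among the 15 lowest 8, including Scx, Bcl7c, Urm1, Chmp6, Psme3, Hells, Srsf10, Clk1, Ddx21 and Nup54. Bcl2l1, Tkt, Mrpl12, Cfl1, Srsf1, Birc3 and the second Ell2 probe set were called as well. The 15 highest and 15 lowest were chosen for their differences on the same 4 arrays, and the block leaves the difference itself unchanged. Calls among them therefore follow largely from that choice and are not separate evidence.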

How the data were processed

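RNA from 5 lines was hybridised to 1 Affymetrix array each. The deposited values are linear intensities, 1 per probe set, scaled by the authors: the mean of each array, without the highest and lowest 2% of values, is about 150. Which software and background correction were used is not given in the sources here. The number of arrays limits the precision.

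Intensities of the 4 AxJ arrays were taken as log2(intensity + 7.02), the 20th percentile of their values, and tested with limma 3.58.1 in R 4.3.3 (moderated test, intensity trend, two-sided, Benjamini-Hochberg, threshold 0.05) over 8915 probe sets, those above 22.8 (the 40th percentile) on at least 1 array. There were 2 residual degrees of freedom. Nothing in the labels says that arrays are separate cultures beyond the separate lines, so the spread behind each p-value is that between these 4 arrays and may be technical. The script was tested on simulated data. Counting followed the rule in the report, with no test of its own.

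Of 12422 probe sets, 10833 had 1 gene symbol in an annotation of 2016, 396 had several and 1193 had none; symbols were updated through RefSeq. Lists used the probe set with the highest mean log2 value for each gene. The genes named were the 15 highest and 15 lowest by their smallest difference over the 4 pairs, those past limma, the 6 with the highest intensity in each direction at 1.5-fold or more, up to 4 counted members of each list, and Hnrnpf, Hnrnph1, Ell2, Igha and Ighm. Genes and probe sets named outside this rule (those without a single symbol, the markers, and the genes at the edge of 100) were chosen after values were seen. The comparison, lists and rules were chosen with earlier results of these data known. Alternatives covered the pseudocount, filter, scaling, trend, block, floor and each array left out. The gene span groups were added after seeing the data.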

Additional observations from a re-analysis of the deposited data

Results flagged for a closer look

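Signals outside the compared probe sets were above the level of the control lines for 2 array controls. The B2 repeat control was at least 9.65-fold higher in each hnRNP-F clone than in each control line, and up to 19.2-fold. The B1 repeat control was at least 1.38-fold higher, and up to 3.19-fold. With 2 arrays a group neither was tested, and their part in the Rpl41 result was not tested.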

How the results depend on the processing

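The limma call of Rpl41 was kept under every alternative except the fit without an intensity trend, which gave 0 calls (419 at an unadjusted p under 0.05). The fit with the Gapdh ratio block gave 80, and leaving out 1 array gave 1 to 2. Counts of probe sets higher in all pairs were 1291 with pairs matched on the Gapdh ratio and 1337 to 1694 with 1 array left out, where fewer pairs must hold. Counts lower were 585 with 200 required on the brighter side and 1284 to 1835 with 1 array left out. At 2-fold, the higher count was 20 with 50 required, 3 with 200 required, 12 in matched pairs and 16 to 180 with 1 array left out, the largest without the hnRNP-H line. The 2-fold lower count was 14, 2 and 11, and 16 to 167. Of 1460 values of 146 named probe sets under 10 alternatives (pseudocount, scaling, A20 in the fit, the block and each array left out), 1431 kept their direction and side of the threshold, 25 passed it under the block alone, and 4 changed sign. The brighter Igha probe set had -0.14 after quantile normalisation. With 1 array left out, the other Igha probe set ran from -0.057 (without B5) to 0.45 and the brightest Ighm probe set from -0.70 (without the empty vector line) to 1.16, with -0.45 without D6. The cause was not tested. The labels give the arrays no replicate numbers that pair them, so the block matches them by the Gapdh ratio alone. Low signal limits Scx, Bcl7c, Urm1, Chmp6 and the counted probe sets of Cat and Casp9, whose controls were below 100. On the lower side, genes with both clones below 100 included Hells, Dna2, Atp6ap2, Klf10, Ddx3x, Kin, Tyms-ps and Srsf1.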
